A study of Mus musculus with 12 samples.

Results

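The genes described here are 10 target genes of the transcription factor p53: Cdkn1a, Mdm2, Gdf15, Ccng1, Sesn2, Phlda3, Trp53inp1, Zmat3, Plk2 and Btg2. They were chosen by name, as the rows of the gene count table that carry these symbols, and make up 10 of its 39756 genes. Each symbol matched a single row. RNA was sequenced from the brain hemispheres of 12 male C57BL/6J mice aged 9 to 10 weeks, with 4 mice in each of 3 groups. The Sham group had sham surgery and saline, and the labels call its hemispheres ischemic too. The Vehicle group was given saline by gavage and underwent tMCAO, a model of stroke: the middle cerebral artery is closed for 45 min and then opened again. The LJP group had the same ischemia and reperfusion (I/R) with a polysaccharide extracted from the brown seaweed Laminaria japonica. Gavage ran daily for 14 days before surgery and went on after it. The time after reperfusion at which these hemispheres were taken was not given in the sources used here. The labels give no dose of LJP, and the study's text says that its middle dose, LJP-M, was carried into the experiments that followed dose finding. All 12 libraries carried the same batch label. Each library came from a whole hemisphere with many cell types, and after ischemia such a hemisphere holds infarcted and spared tissue. A change in the number of cells of a type and a change in RNA per cell therefore cannot be told apart.

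p53 is held at low levels in unstressed cells because Mdm2, an E3 ubiquitin ligase, marks it for degradation. DNA damage, hypoxia and other stresses free p53, which then binds pairs of a decamer, a motif of 10 letters, near its target genes and raises their transcription. The targets stop the cell cycle, slow growth signalling, or lead to cell death, and Mdm2 is itself a target that closes a feedback loop. Neurons, glia and endothelial cells all carry this pathway, and cerebral ischemia is a known setting for it. Several of the 10 genes also answer to other factors: Sesn2 and Gdf15 to the stress factor ATF4, and Plk2 and Btg2 to neuronal activity.

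The promoter windows differed in the p53 motif. RefSeq windows of the GRCm38.p6 build, from 250 bases before to 50 bases after a transcript start, were read for 8 of the 10 genes, in 10 windows. Windows for Trp53inp1 and Zmat3 were not used here. The p53 decamer, which reads the same on both strands, occurred in windows of 3 genes, Cdkn1a, Mdm2 and Ccng1, and in no window of Btg2, Phlda3, Sesn2, Gdf15 or Plk2. Among 32851 mouse promoter windows of the same length, 8.36% held a decamer. A full p53 element, a pair of exact decamers with at most 13 letters between them, occurred in Cdkn1a alone of the 8 genes and in 0.0731% of all windows. The stretches around these motifs are printed because they lie beside a gene that rose between Sham and Vehicle (Cdkn1a), a gene at the threshold (Mdm2) and a gene that did not pass the test (Ccng1). Capitals mark the p53 match.
Cdkn1a: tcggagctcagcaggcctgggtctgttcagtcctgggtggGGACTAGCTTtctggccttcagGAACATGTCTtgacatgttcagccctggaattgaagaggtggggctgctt
Mdm2: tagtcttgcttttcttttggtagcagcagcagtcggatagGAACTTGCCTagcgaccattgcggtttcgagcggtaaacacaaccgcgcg
Ccng1: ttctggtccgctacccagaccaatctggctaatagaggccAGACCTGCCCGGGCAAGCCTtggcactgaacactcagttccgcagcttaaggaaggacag
The Cdkn1a stretch is chr17:29090866-29090977 on the plus strand. Its element matches 20 of 20 letters over its decamers, which are separated by 12 letters, and it lies 73 to 42 bases before the transcript start at 29090979. The window at the other Cdkn1a start read here, 29093769, held no decamer. The Mdm2 stretch is chr10:117710895-117710984 on the minus strand, with a single decamer 186 to 177 bases before the start at 117710758. The Ccng1 stretch is chr11:40755422-40755521 on the minus strand, with adjoining decamers 195 to 176 bases before the start at 40755286 that match 19 of 20 letters, which at least 19 letters did in 0.627% of all windows. The letters TGATGNAA, a core of the ATF4 motif searched on both strands, occurred in none of the 10 windows and in 3.97% of all windows. A match says only that these letters are in the window, and no match says only that they are not in it.

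Depth was even across the mice. The libraries held 17960353 to 22216315 counts over all genes, and 3 counts corresponded to 0.129 to 0.173 CPM, counts scaled to a common library total, the level that a count of 0 allows. The library totals were first adjusted for composition by TMM scaling. Of the 39756 genes, 17558 passed a filter on low counts and were tested with edgeR's quasi-likelihood test over all 12 mice, and a gene was called where its Benjamini-Hochberg adjusted p was below 0.05. All 10 genes passed. For 9 of them the lowest count in any mouse was 134, but Gdf15 passed only through the Vehicle group, since no Sham mouse reached 10 counts and 2 of 4 LJP mice did. That gene could therefore hardly have been tested without being higher in Vehicle.

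In Vehicle mice, 6 of the 9 p53 targets other than Gdf15 differed from Sham. Cdkn1a, Phlda3, Sesn2 and Trp53inp1 rose and Zmat3 and Plk2 fell, while Mdm2, Btg2 and Ccng1 did not pass the test. Over all genes tested, 39.9% were called in this comparison, 22.7% higher and 17.3% lower (4737 genes higher and 2299 lower when libraries were scaled by their totals alone, against 3982 and 3032), and the count over the p53 targets stands beside that share without a test of its own. Gdf15 was called higher as well, but the filter let it in only where Vehicle was high, so the counts that include it, here 7 of 10, are given as a description. The groups did not overlap for the same 6 of 9 genes, against 39.5% of all genes tested (20.7% higher and 18.8% lower). At an unadjusted p below 0.05, 7 of the 9 passed, against 49.9% of all genes. With Gdf15 included, DESeq2 called 7 of the 10, against 35.7% of all genes it tested, and the thresholds of the study (a log2 fold change of at least 0.58 in size and an unadjusted p below 0.01) called 6, against 21.7%. The median log2 fold change was 0.31 over the 9 genes and 0.57 with Gdf15, against 3.54e-05 over all genes tested.

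**Figure D1:**
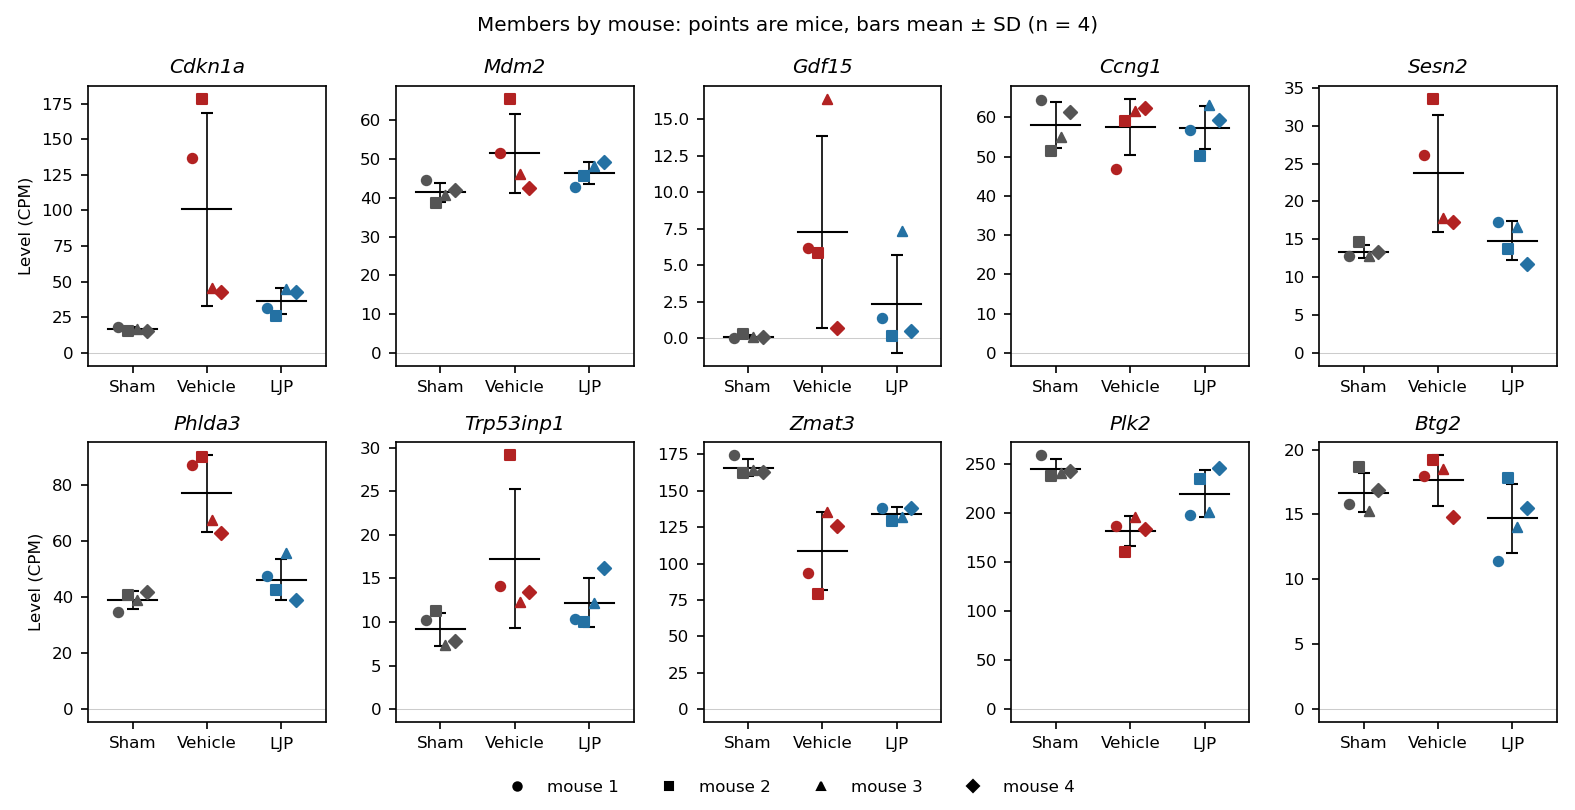
Level of each of the 10 p53 target genes in each mouse. Each panel is a gene, the y axis is CPM from 0, points are single mice, and bars are the mean ± SD of the 4 mice in Sham, Vehicle and LJP. Cdkn1a reaches 137 and 178 CPM in Vehicle mice 1 and 2 and stays between 15.3 and 45.5 CPM in the other 10 mice.

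Cdkn1a encodes p21, an inhibitor of cyclin-dependent kinases and the main effector of arrest by p53. It lies at chr17:29090979-29100722 on the plus strand of GRCm38. Its level was 18.3, 15.3, 16.9 and 15.4 CPM in Sham mice 1 to 4, 137, 178, 45.5 and 42.6 CPM in Vehicle mice 1 to 4, and 31.6, 26.2, 45.1 and 42.7 CPM in LJP mice 1 to 4. Every Vehicle mouse was above every Sham mouse, and Vehicle mice 1 and 2 stood about 3 times or more above Vehicle mice 3 and 4. The means were 16.5 ± 1.41 CPM in Sham, 101 ± 67.7 CPM in Vehicle and 36.4 ± 9.0 CPM in LJP (SD, n = 4 each). Vehicle was 6.12-fold above Sham in mean CPM, with a log2 fold change of 2.61 (95% interval 1.72 to 3.51) and an edgeR adjusted p of 0.000775. With Vehicle mice 3 and 4 alone, a subset chosen after the data were seen for its cell type marker sums, the log2 fold change was 1.41, with an edgeR adjusted p of 3.22e-05.

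The other 3 genes of cell cycle control did not follow Cdkn1a. Btg2 encodes an antiproliferative protein that speeds the removal of poly(A) tails from mRNAs. It ranged from 15.3 to 18.7 CPM in Sham, from 14.8 to 19.2 CPM in Vehicle and from 11.4 to 17.8 CPM in LJP, and the 3 groups overlapped. The Vehicle minus Sham log2 fold change of Btg2 was 0.08 (95% interval -0.22 to 0.38, edgeR adjusted p = 0.662). Ccng1 encodes cyclin G1, which brings the phosphatase PP2A to Mdm2. Ccng1 spanned 51.5 to 64.5 CPM in Sham, 47.0 to 62.4 CPM in Vehicle and 50.2 to 63.1 CPM in LJP, and its log2 fold change of -0.01 between Vehicle and Sham had a 95% interval of -0.25 to 0.22 (edgeR adjusted p = 0.924) and turned to 0.063 when libraries were scaled by their totals alone. Ccng1 is the gene whose window matched 19 of 20 letters of the p53 element.

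Plk2 encodes a polo-like kinase that neurons also use to weaken synapses after strong activity. It was 259, 238, 241 and 243 CPM in Sham mice, 187, 160.2, 196 and 184 CPM in Vehicle mice and 199, 235, 201 and 246 CPM in LJP mice. All Vehicle mice were below all Sham mice and all LJP mice. The Vehicle minus Sham log2 fold change of Plk2 was -0.44 (95% interval -0.63 to -0.24), with an edgeR adjusted p of 0.00278.

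Of the feedback genes, Trp53inp1 rose and Mdm2 was at the threshold. Trp53inp1 encodes a stress protein that aids p53 in nuclear bodies and takes part in autophagy. It was 10.3, 11.3, 7.34 and 7.83 CPM in Sham mice, 14.2, 29.2, 12.3 and 13.5 CPM in Vehicle mice, and 10.4, 10.02, 12.2 and 16.2 CPM in LJP mice. All Vehicle mice lay above all Sham mice, with Vehicle mouse 2 apart from the rest. The log2 fold change was 0.92 (95% interval 0.32 to 1.51, edgeR adjusted p = 0.0188), and Trp53inp1 lost its call without Sham mouse 3, without Sham mouse 4 (adjusted p = 0.0566 and 0.0517), and with Vehicle mice 3 and 4 alone (log2 fold change 0.49, adjusted p = 0.0817). Without Vehicle mouse 2 it was still called, at 0.53.

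Mdm2 was 44.5, 38.6, 40.8 and 42.1 CPM in Sham mice, 51.6, 65.6, 46.2 and 42.6 CPM in Vehicle mice and 42.9, 45.6, 48.2 and 49.3 CPM in LJP mice. Vehicle mouse 4 lay inside the Sham range. The Mdm2 log2 fold change between Vehicle and Sham was 0.31 (95% interval 0.06 to 0.57), with an edgeR adjusted p of 0.0510, and it was called without Vehicle mouse 3 (0.36, adjusted p = 0.0298) and without Vehicle mouse 4 (0.39, adjusted p = 0.0158). Without Vehicle mouse 2 the Mdm2 value was 0.17 (adjusted p = 0.140). With Vehicle mice 3 and 4 alone it was 0.09.

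Both genes that slow growth signalling rose. Phlda3 encodes a small protein that competes with the kinase Akt for membrane lipids. It was 34.6, 40.8, 39.0 and 41.8 CPM in Sham mice, 87.4, 90.3, 67.7 and 63.0 CPM in Vehicle mice, and 47.5, 42.6, 56.0 and 39.1 CPM in LJP mice. Every Vehicle mouse was above every mouse of the other groups. The Vehicle minus Sham log2 fold change of Phlda3 was 0.98 (95% interval 0.68 to 1.28), a 1.97-fold difference in mean CPM, with an edgeR adjusted p of 0.000393, the smallest of the 10 genes. Its window held no decamer.

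Sesn2 encodes sestrin 2, a leucine sensor that restrains mTORC1. Sesn2 was 12.8, 14.7, 12.8 and 13.3 CPM in Sham mice, 26.1, 33.6, 17.8 and 17.4 CPM in Vehicle mice, and 17.3, 13.8, 16.6 and 11.7 CPM in LJP mice. The Vehicle mice were above the Sham mice without overlap. Its log2 fold change between Vehicle and Sham was 0.83 (95% interval 0.39 to 1.26, edgeR adjusted p = 0.00702), and 0.39 with Vehicle mice 3 and 4 alone (adjusted p = 0.0494).

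Gdf15, a secreted cytokine of the TGF-beta superfamily that marks cellular stress, was nearly absent in Sham. It had 0, 5, 2 and 1 counts in Sham mice, 136, 136, 305 and 13 counts in Vehicle mice, and 31, 3, 135 and 9 counts in LJP mice. The Vehicle mice were all above the Sham mice, but ranged from 0.700 to 16.4 CPM among themselves, and Vehicle mouse 3 was highest, not the mice with most Cdkn1a. Set against library size, the summed counts gave 65.5 times more Gdf15 in Vehicle than in Sham, with a 95% interval of 33 to 152.5 that covers counting error only. The edgeR fit gave a log2 fold change of 5.98 with a 95% interval of 3.06 to 8.90 and an adjusted p of 0.00480, which is not counted as support because Gdf15 passed the filter only through Vehicle.

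Zmat3, which encodes an RNA-binding zinc finger protein, fell. It was 175, 162, 164 and 163 CPM in Sham mice, 93.4, 79.0, 136 and 126 CPM in Vehicle mice and 138, 129, 132 and 138 CPM in LJP mice. All Vehicle and all LJP mice were below all Sham mice, and Vehicle mice 1 and 2 were lowest. The Vehicle minus Sham log2 fold change of Zmat3 was -0.61 (95% interval -0.91 to -0.32, edgeR adjusted p = 0.00451). A lncRNA gene on the opposite strand, 4930429B21Rik, overlaps Zmat3 and carried 6.28% of the counts of Zmat3, and reads from the overlap cannot be told apart because the strand setting of the counting was not given in the sources used here.

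Per kilobase of gene model (RPKM), the order of the levels also shifted. In Sham the mean RPKM was 87.6 for Plk2, 26.6 for Phlda3, 20.4 for Zmat3, 16.6 for Ccng1 and 8.09 for Cdkn1a, followed by Mdm2 at 5.6, Btg2 at 5.4 and Sesn2 at 5.04, which lay within the spread between mice of each other. Trp53inp1 at 1.69 and Gdf15 at 0.0581 were lowest. In Vehicle, Cdkn1a followed Plk2 and Phlda3 at a mean of 49.5 ± 33.3 RPKM (SD, n = 4), within its spread of Phlda3 at 52.6 RPKM. In LJP, Cdkn1a again followed these genes, at 17.9 RPKM, next to Zmat3 at 16.5 and Ccng1 at 16.3 RPKM.

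No p53 target was called between LJP and Vehicle. The question of this comparison is whether the polysaccharide changed the response of the injured hemisphere, and over all genes tested only 0.0228% were called, all of them lower in LJP. Of the 10 genes, 5 had an unadjusted p below 0.05 (29.7% of all genes tested) and 3 did not overlap between the groups (11.7% of all genes), with Phlda3 and Sesn2 lower in LJP (5.91% of all genes) and Plk2 higher (5.77%). DESeq2 called 4 of the 10, Phlda3, Cdkn1a and Sesn2 lower and Plk2 higher in LJP, against 13.4% of all genes it tested (9.48% lower and 3.88% higher). The thresholds of the study called 3 of the 10, all lower, against 6.97% of all genes. The log2 fold change was negative for 8 genes, Gdf15 included, and positive for 2, Plk2 and Zmat3, and its median was -0.38, against -0.00174 over all genes. Without Gdf15, which passed the filter only through Vehicle, it was negative for 7 of 9 genes, with a median of -0.26.

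**Figure D2:**
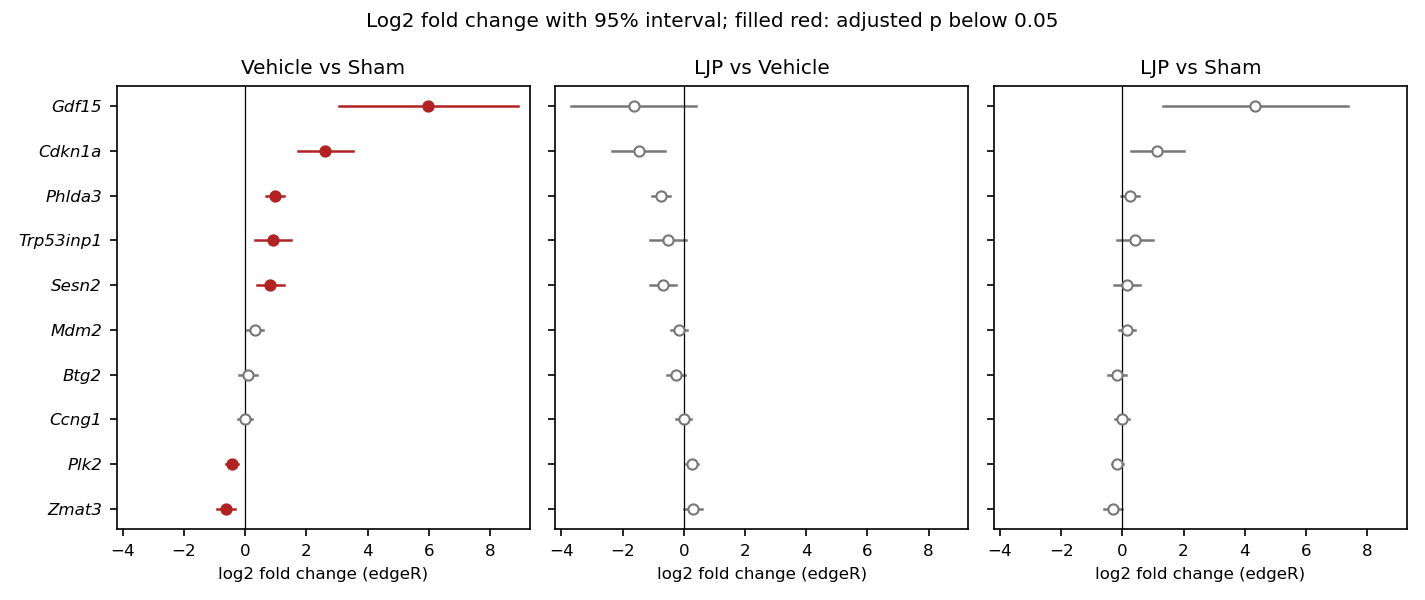
Log2 fold change of the 10 p53 targets in the 3 comparisons of the groups. The x axis is the edgeR log2 fold change, points are estimates and lines their 95% intervals; the comparisons share groups. For Vehicle against Sham the points run from -0.61 for Zmat3 to 5.98 for Gdf15, and for LJP against Vehicle 8 of 10 points lie below 0. Gdf15, which passed the filter only through Vehicle, is among those 8.

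Phlda3 was lower in all LJP mice than in any Vehicle mouse, with a log2 fold change of -0.74 (95% interval -1.03 to -0.44), an edgeR adjusted p of 0.0678 and an exact two-sided permutation p of 0.0286, the smallest that 4 against 4 mice allow. The range of its log2 fold change when each mouse was left out was -0.84 to -0.65. Sesn2 was lower by the same order, at -0.68 (95% interval -1.11 to -0.24, edgeR adjusted p = 0.0720), with a narrow gap between the lowest Vehicle mouse at 17.4 CPM and the highest LJP mouse at 17.3 CPM. Plk2 was higher in LJP without overlap, at 0.28 (95% interval 0.09 to 0.47, edgeR adjusted p = 0.0805).

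Cdkn1a had the largest negative log2 fold change between LJP and Vehicle among the 9 genes with ample counts, -1.47 (95% interval -2.33 to -0.62, edgeR adjusted p = 0.0680). The groups overlapped, because LJP mice 3 and 4 at 45.1 and 42.7 CPM lay level with Vehicle mice 3 and 4 at 45.5 and 42.6 CPM. With those Vehicle mice alone the Cdkn1a log2 fold change was -0.28, but they are the Vehicle mice with the least Cdkn1a, so the choice of mice itself fixes a smaller difference and the value is a description only. The same holds for Sesn2 at -0.24 and Phlda3 at -0.50, which were also lowest in these mice. Without Vehicle mouse 3, 5 of the 10 genes were called (Cdkn1a, Sesn2, Phlda3, Zmat3 and Plk2, against 21.8% of all genes), and without Vehicle mouse 4, 3 were (Cdkn1a, Sesn2 and Phlda3, against 12% of all genes).

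Among the others, Gdf15 gave -1.63 with a 95% interval of -3.67 to 0.40 (edgeR adjusted p = 0.251). LJP mouse 3, with 135 counts, held most of the Gdf15 of its group, and without it the log2 fold change was -3.36. Without Vehicle mouse 3 the Gdf15 value was -0.86. Zmat3 gave 0.31 (adjusted p = 0.154), Trp53inp1 -0.51 (0.221), Btg2 -0.26 (0.214) and Mdm2 -0.15 (0.401), all by edgeR, and the last 3 of these had 95% intervals that included 0. Without Vehicle mouse 2 these values were 0.18 for Zmat3, -0.13 for Trp53inp1, -0.22 for Btg2 and -0.0098 for Mdm2. The smallest difference was that of Ccng1, whose 95% interval was -0.24 to 0.23.

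Between LJP and Sham, none of the 10 genes was called, against 4.75% of all genes tested. An unadjusted p below 0.05 was reached by 2 of the 9 genes other than Gdf15, and by Gdf15, against 18.8% of all genes. The thresholds of the study called 1, Gdf15, which passed the filter only through Vehicle, against 5.9% of all genes. Cdkn1a was 2.21-fold higher in mean CPM in LJP, and every LJP mouse was above every Sham mouse, with a log2 fold change of 1.14 (95% interval 0.27 to 2.02, edgeR adjusted p = 0.139). Zmat3 was lower without overlap, at -0.30 (95% interval -0.60 to -0.01, edgeR adjusted p = 0.251). These were the 2 genes without overlap, against 24.9% of all genes. Gdf15 counts were 20.9 times those of Sham relative to library size, with a counting interval of 10.4 to 49.2, but LJP mouse 2 with 3 counts lay inside the Sham range (edgeR adjusted p = 0.104). LJP mouse 3 held most of these counts, and without it the Gdf15 log2 fold change was 2.62, against 4.34 with all mice. DESeq2 called Gdf15 and Cdkn1a higher (adjusted p = 0.0128 and 0.0362, against 7.65% of all genes it tested, 5.67% higher), and edgeR called Cdkn1a higher and Zmat3 lower without Vehicle mouse 2 (adjusted p = 0.0383 and 0.0434, against 13.5% of all genes). Fitted on the 8 mice of these groups alone, edgeR called 3 of the 10, Cdkn1a and Gdf15 higher and Zmat3 lower (adjusted p = 0.000151, 0.0136 and 0.000837), against 23.1% of all genes. Sesn2 and Phlda3 gave 0.15 and 0.25, with 95% intervals of -0.29 to 0.59 and -0.05 to 0.54.

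The Vehicle mice differed among themselves. Vehicle mouse 2 had the highest level of its group for 6 of the 10 genes, against 36% of all genes tested, and the lowest for 2, Zmat3 and Plk2, against 33.4%. Vehicle mouse 4 was lowest for 6, against 16.9%. Gdf15 was highest in Vehicle mouse 3 and Ccng1 in Vehicle mouse 4. Cell type markers differed between these mice too. The summed CPM of 4 endothelial markers was 598 and 1239 in Vehicle mice 1 and 2, 235 and 295 in Vehicle mice 3 and 4, 158 to 172 in Sham and 154 to 214 in LJP, and 3 of the 4 markers rose in Vehicle against Sham. The summed level of 6 neuronal markers was 4524 and 3548 CPM in Vehicle mice 1 and 2 and 5300 to 6280 CPM in the other Vehicle mice, in Sham and in LJP, and 2 of the 6 fell. The 5 neutrophil markers summed to 141, 33.5, 0.592 and 4.15 CPM in Vehicle mice 1 to 4, to at most 0.272 CPM in Sham and at most 0.727 CPM in LJP, and none of them passed the filter to be tested. Their part in the results for the p53 targets was not tested.

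**Figure D3:**
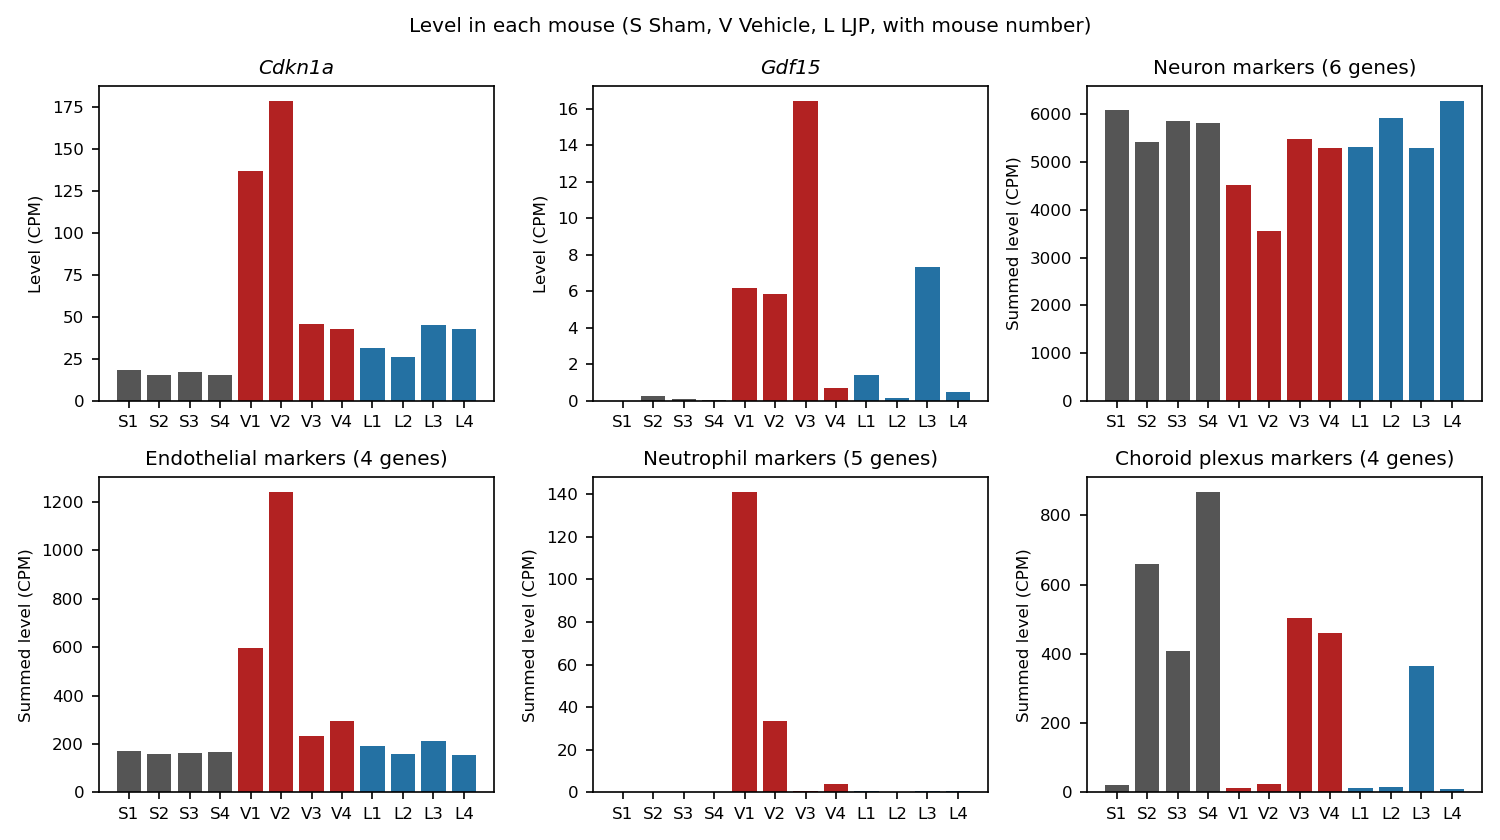
Levels of Cdkn1a, Gdf15 and summed cell type markers in each mouse. Each bar is a mouse, the y axis is CPM from 0, and colours are the Sham, Vehicle and LJP groups. Vehicle mice 1 and 2 have the highest Cdkn1a (137 and 178 CPM) and endothelial sums (598 and 1239 CPM) and the lowest neuronal sums (4524 and 3548 CPM).

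Microglia and macrophage markers differed in another way. Their 6 markers summed to 188 to 193 CPM in Sham, 304 to 545 CPM in Vehicle and 317 to 542 CPM in LJP, and 5 of 6 rose in both injured groups. The 5 astrocyte markers summed to 862 to 901 CPM in Sham, 2213 to 3665 CPM in Vehicle and 1843 to 3021 CPM in LJP, and 2 of 5 rose in both. In Vehicle, the microglial sum was lowest in mouse 1, one of the mice with most Cdkn1a. The 4 choroid plexus markers varied from 20.5 to 866 CPM within Sham, and LJP mouse 3, which had the most Gdf15 of its group, was the LJP mouse with a high sum (364 CPM, against 11.2 to 14.4 CPM in the others), while Vehicle mice 3 and 4 had 503 and 461 CPM. The 4 oligodendrocyte markers, 1 of which rose in Vehicle, summed to 3920 to 5523 CPM over all mice.

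With Vehicle mice 3 and 4 alone against Sham, 6 of the 10 genes were called, 4 higher (Cdkn1a, Phlda3, Sesn2 and, with the limit given above, Gdf15) and 2 lower (Zmat3 at -0.35 and Plk2 at -0.38), against 30.7% of all genes. With these Vehicle mice, none was called between LJP and Vehicle, against 0.0399% of all genes.

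The gene of p53 itself, Trp53, was 18.4 to 19.9 CPM in Sham, 30.4, 35.8, 24.9 and 20.4 CPM in Vehicle mice and 20.6 to 23.8 CPM in LJP. Trp53 rose in Vehicle, with a log2 fold change of 0.54 (SE 0.14, edgeR adjusted p = 0.0104), and between LJP and Vehicle it gave -0.33 (adjusted p = 0.144). Of the 15 genes in the list of p53 and its regulators, Cdkn2a aside, 3 of 14 rose (21.4%, near the 22.7% of all genes called higher) and none fell, against 17.3% of all genes. Cdkn2a, whose Arf product holds Mdm2 in check, gave 2.77 (adjusted p = 0.00229), but had at most 3 counts in any Sham mouse and passed the filter only through Vehicle, the group where it was high, so its call is not counted as support. Chek2, a kinase that phosphorylates p53, rose by 1.40 (adjusted p = 0.0196), and Rchy1, a ubiquitin ligase for p53, rose by 0.33 (adjusted p = 0.0349). With Vehicle mice 3 and 4 alone, none of the 14 was called higher and 1 was called lower (30.7% of all genes were called in either direction). Trp53, Chek2 and Rchy1 thus lost their calls. Trp53 and Rchy1 were lowest in these Vehicle mice, so for them the choice of mice itself favours a smaller difference.

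Most targets in cell death rose. Of the 14 genes, Eda2r aside, 10 of 13 rose and none fell between Vehicle and Sham, against 22.7% and 17.3% of all genes, and their median log2 fold change was 0.82. Among these 14, the 3 with the lowest p encode receptors of the TNF receptor superfamily: Tnfrsf10b rose by 2.64 (adjusted p = 0.00162), Fas rose by 2.18 (0.00187) and Eda2r gave 2.76 (0.00130). Their levels were low: Eda2r was 0.231 to 0.493 CPM in Sham and 1.24 to 3.87 CPM in Vehicle, with no Sham mouse at 10 counts, and Fas was 0.817 to 1.1 CPM in Sham and 2.26 to 7.26 CPM in Vehicle. Bax, which opens the mitochondrial outer membrane, rose by 0.82, Bbc3 (Puma) by 0.88 and Pmaip1 (Noxa) by 1.47. Between LJP and Vehicle none of the 14 was called. Of the 13 genes other than Eda2r, all 13 log2 fold changes were negative, 10 had an unadjusted p below 0.05 (29.7% of all genes) and 4 did not overlap (11.7% of all genes). Vehicle mice 1 and 2, which had the high endothelial and low neuronal sums, stood highest for both genes that follow. Bax was 55.3, 67.5, 37.0 and 40.6 CPM in Vehicle mice 1 to 4, 28.9 to 38.0 CPM in LJP and 25.1 to 32.8 CPM in Sham, and Pmaip1 was 6.85, 12.2, 3.34 and 4.26 CPM in Vehicle mice and 3.51 to 4.09 CPM in LJP. With Vehicle mice 3 and 4 alone, 6 of the 13 rose against Sham (30.7% of all genes were called in either direction), with a median of 0.44, and between LJP and these mice none was called, with a median of -0.20. Bax and Pmaip1 were lowest in these Vehicle mice, so for them the choice of mice itself favours smaller differences. The medians with these mice are a description only. Eda2r at -2.17 and Tnfrsf10b at -1.98 had edgeR adjusted p of 0.0678 each. Eda2r was 0.223 to 0.979 CPM in LJP, below all Vehicle mice, but it passed the filter only through Vehicle, where it was high, so its differences are not counted as support.

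**Figure D4:**
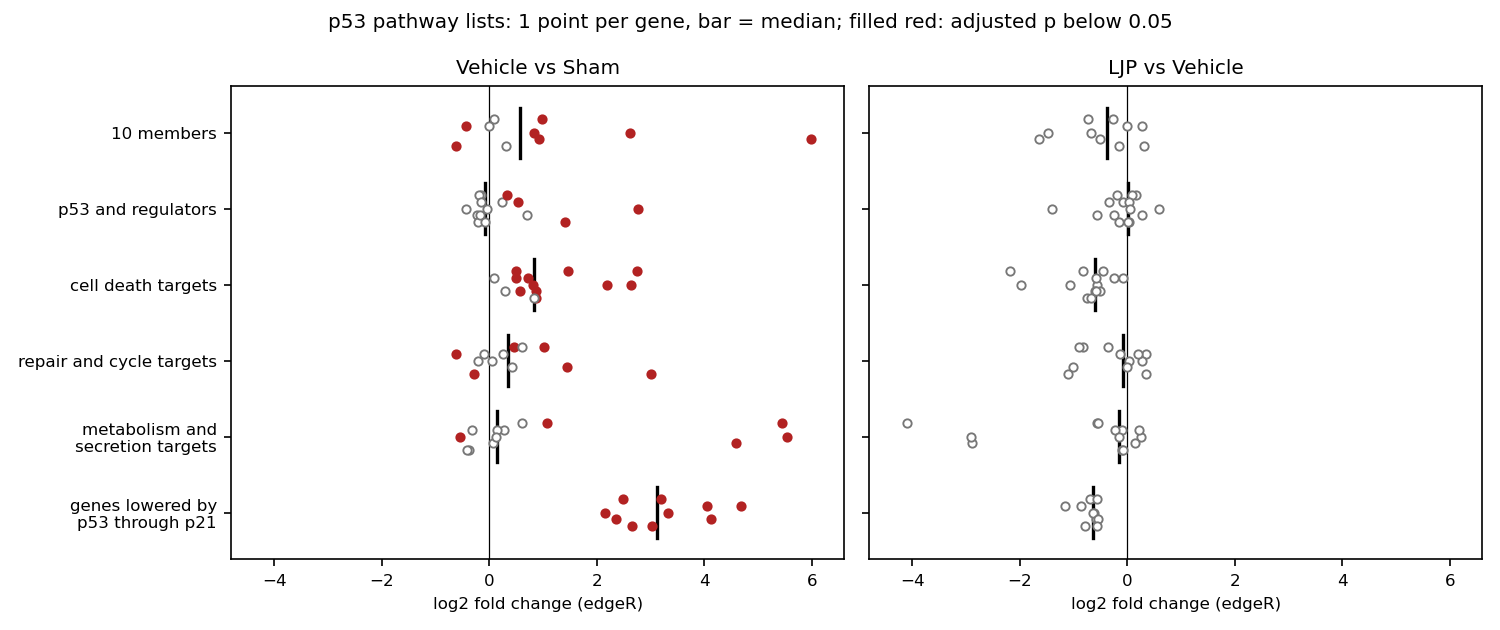
Log2 fold changes of the genes of each p53 pathway list. The x axis is the edgeR log2 fold change, each point is a gene (filled where called), and the bar is the list's median, for Vehicle against Sham and for LJP against Vehicle. The 14 cell death targets, Eda2r included, have a median of 0.83 in Vehicle against Sham and -0.59 in LJP against Vehicle. Without Eda2r, which passed the filter only through Vehicle, the medians of the 13 are 0.82 and -0.58.

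Of 12 targets in DNA repair and the cell cycle, 4 rose and 2 fell between Vehicle and Sham, against 22.7% and 17.3% of all genes. Gtse1, which restrains p53 in G2, rose by 3.01 (adjusted p = 0.00113), Btg1, a relative of Btg2, rose by 1.02 (adjusted p = 0.00646), and Ccng2, a relative of Ccng1, fell by 0.62 (adjusted p = 0.00520). In Sham mouse 1 Gtse1 had 6 counts, so the Sham mice alone would not have passed it through the filter. Btg1 was 28.3 to 31.4 CPM in Sham, 74.1, 93.1, 35.1 and 40.5 CPM in Vehicle mice and 32.7 to 36.4 CPM in LJP. Of 13 targets in metabolism and secretion, 4 rose and 1 fell, 38.5% of the list against 39.9% of all genes. Thbs1, which encodes the secreted matrix protein thrombospondin 1, and Igfbp3, which encodes a secreted binding protein of insulin-like growth factors, rose by 5.45 and 4.59 (adjusted p = 0.00162 and 0.000541). Thbs1 was 288 and 224 CPM in Vehicle mice 1 and 2 against 11.5 and 31.5 CPM in Vehicle mice 3 and 4, a split like that of Cdkn1a. Between LJP and Vehicle Thbs1 and Igfbp3 gave -4.10 and -2.89 (edgeR adjusted p = 0.0678 each), and LJP mouse 3 lay above the lowest Vehicle mouse in both.

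Genes that p53 lowers through p21 and the DREAM repressor complex rose between Vehicle and Sham. For 3 of the 10 genes (Cdk1, Bub1 and Cdc25c) no Sham mouse reached 10 counts, so those could be tested only through the injured groups and are not counted. The other 7 all rose (22.7% of all genes were called higher), by 2.15 to 4.13 with a median of 3.03. Of these, Ccnb1 had 6, 3, 8 and 14 counts and Birc5 14, 12, 15 and 9 counts in Sham mice 1 to 4. The Sham mice alone would not have passed Ccnb1 or Birc5 through the filter, so their calls are given as a description. Mki67, a marker of cycling cells, was 3.68 to 4.56 CPM in Sham, 12.4, 77.6, 40.1 and 34.6 CPM in Vehicle mice and 13.9 to 47.5 CPM in LJP. Its order among the Vehicle mice differed from that of Cdkn1a, since mouse 1 was lowest. The microglia and macrophage sum was also lowest in Vehicle mouse 1 (304 CPM, against 503 to 545 CPM in the others), and in LJP mice 1 to 4 it was 542, 326, 536 and 317 CPM beside Mki67 levels of 28.4, 16.5, 47.5 and 13.9 CPM. Its part in the rise was not tested. The rise of Mki67 was 3.32 (adjusted p = 0.000731) and that of Ccnb1, the cyclin of mitotic entry, 4.13 (0.00126), while Cdk1, its kinase, gave 4.67 (0.000749). Between LJP and Vehicle all 7 log2 fold changes were negative, with a median of -0.63, but none was called and none had an unadjusted p below 0.05, against 29.7% of all genes. Between LJP and Sham all 7 log2 fold changes were positive, all 7 had an unadjusted p below 0.05 (18.8% of all genes), and none of the 7 overlapped between the groups (24.9% of all genes did not). Of the 7, 4 were called higher (Mki67 and Top2a and, with the limit given above, Birc5 and Ccnb1), against 3.85%.

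Of the 63 other pathway genes, 5 had no Sham mouse at 10 counts. Of the remaining 58, 31 were called between Vehicle and Sham (53.4%, 28 higher and 3 lower, against 39.9% of all genes tested), and their median log2 fold change was 0.50. None was called between LJP and Vehicle, where 25 had an unadjusted p below 0.05 (29.7% of all genes). Between LJP and Sham 4 were called, all higher (Birc5 and Ccnb1 among them, with the limit given above), against 3.85% of all genes. Over all 63, DESeq2 called 14 between LJP and Vehicle (13.4% of the genes it tested), and with Vehicle mice 3 and 4 alone 29 of the 63 were called against Sham (30.7% of all genes) and none against LJP (0.0399% of all genes).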

How the data were processed

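RNA from ischemic hemispheres was enriched for poly(A) and made into libraries with a NEBNext Ultra RNA kit, and the authors deposited a table of raw read counts per gene for 12 mice in 3 groups of 4. The deposited table also gives a gene length in bases that served here for RPKM. The submitters' processing notes name featureCounts, DESeq2 and the builds GRCm39 and mm10. The positions in the table equal RefSeq GRCm38 spans for 10 of the 10 genes. The aligner, the strand setting and the handling of shared reads were not given in the sources used here. Genes were filtered with filterByExpr (17558 of 39756 kept), scaled by TMM and fitted with edgeR 4.0.16 in R 4.3.3, with a coefficient for each group, over all 12 mice. Exact permutation tests used log2(CPM + 0.5). Alternatives were DESeq2 1.42.0, other scalings, no filter, pairs of groups, a replicate block, the thresholds of the study, and leaving out each mouse. The fit was tested on simulated data. The labels number the libraries as replicate mice of a group, and no pair of libraries agreed within sampling noise. The genes and the pathway and marker lists were chosen with earlier results of these data known. All 10 genes are named, with Trp53, the genes called between LJP and Vehicle, and the 3 genes of smallest p in Vehicle against Sham of each pathway list (2 of the ATF4 and activity lists); 1 gene that this rule names is not reported here. Rchy1, Bax, Bbc3, Pmaip1, Ddit3, Atf4, 4930429B21Rik and the LJP against Sham calls were named after their values were seen.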

Additional observations from a re-analysis of the deposited data

Results flagged for a closer look

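In Vehicle, Trp53inp1 was 29.2 CPM in mouse 2 against 12.3 to 14.2 CPM in the other 3 mice. The gap to the nearest mouse was 0.891 of the range of the group, past Dixon's 95% critical value for 4 samples. Of the 30 sets of 4 values checked (10 genes in 3 groups), 1 was past this value, where chance gives 1.5.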

How the results depend on the processing

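Between Vehicle and Sham, 7 of the 10 genes were called, Gdf15 included, and 8 with library-size scaling, 6 with the study's thresholds, 6 with Vehicle mice 3 and 4 alone, and 6 to 8 when each mouse was left out. All genes called were 7014, and 7036, 3807, 5389 and 5297 to 8120 under these settings. Between LJP and Vehicle, 0 of 10 became 4 with DESeq2, 2 with no filter and 3 with the study's thresholds (0 to 5 leaving out mice). The other pathway genes became 14, 5 and 10 (0 to 22), and all genes 2313, 593 and 1223, 2 with a pair of groups and 7 with Vehicle mice 3 and 4 alone, a setting chosen after seeing the data (3 to 3836). Between LJP and Sham, the 10 genes gave 2 with DESeq2, 3 with a pair of groups and 1 with the study's thresholds (0 to 2). The other pathway genes gave 11, 24 and 11, and 9 with no filter (2 to 13), and all genes 1458 and 4062 (392 to 2377). Sign changed for Ccng1 with library-size scaling (0.063 against Sham in Vehicle, 0.035 in LJP), with Vehicle mice 3 and 4 alone (0.089), without a filter (0.0042 in LJP against Vehicle), and leaving out mice (-0.068 to 0.071, -0.090 to 0.055 and -0.073 to 0.040), and with Vehicle mice 3 and 4 alone for Btg2 (-0.0080 in Vehicle against Sham) and Mdm2 (0.065 in LJP against Vehicle). The causes were not tested. Replicate numbers are shared by the groups, but only 1 of 12 same-numbered pairs correlated over 0.1 (-0.32 to 0.11), so they were not treated as pairs. With a replicate block, 7, 0 and 0 of the 10 genes, 34, 0 and 4 other pathway genes and 6110, 2 and 464 of all genes were called. Of the 10 genes, Gdf15 had the lowest counts and the widest intervals.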

Other observations

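Lists of 2 other stress programmes were read beside the p53 targets. Of 8 targets of ATF4 and CHOP, factors of the integrated stress response that also act on Sesn2 and Gdf15, 3 rose and 2 fell between Vehicle and Sham, against 22.7% and 17.3% of all genes, and the median log2 fold change was 0.12. Atf3 rose by 3.91 (edgeR adjusted p = 0.000206) and Nupr1 by 2.16 (0.000541), while Ddit3, which encodes CHOP, gave 0.18 (0.227) and Atf4 0.06 (0.703). Atf3 had 6 counts in Sham mouse 1, so the Sham mice alone would not have passed it through the filter. Atf3 and Nupr1 were also higher in LJP than in Sham, by 2.6 and 2.02 (adjusted p = 0.00846 and 0.00349). Of 8 genes that neuronal activity induces, as it does Plk2 and Btg2, 2 rose and 1 fell between Vehicle and Sham, 37.5% of the list against 39.9% of all genes. Ier2 rose by 1.31 (0.00754) and Egr1 fell by 0.91 (0.00942), and Egr1 was 126 and 154 CPM in Vehicle mice 1 and 2 against 218 to 408 CPM in the other 10 mice.

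The genes whose log2 CPM over the 12 mice was most like that of Cdkn1a were Mfsd10, Angptl4, Fas, Nfkbiz and Tspan4, with Pearson r of 0.987, 0.986, 0.985, 0.985 and 0.985. These values describe 12 mice in 3 groups, which share the split of the Vehicle mice. Their mean levels in Sham, Vehicle and LJP were 12.3, 29.6 and 17.8 CPM for Mfsd10, 2.02, 28.3 and 5.32 CPM for Angptl4, 3.87, 16.1 and 8.28 CPM for Nfkbiz, and 15.2, 80.1 and 29.7 CPM for Tspan4.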
